A study of Mus musculus with 9 samples.

Results

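Gr-1+ cells from the spleens of allogeneic bone marrow transplant hosts that lack Ido1 were compared with the same cells of syngeneic hosts, in which there was no graft-versus-host disease. The comparison rests on the 3 arrays titled KO and the 3 arrays titled syngeneic non-GVHD, 6 of the 9 arrays of the series. The KO hosts were of the strain B6.129-Ido1tm1Alm/J (IDO KO) and had received an allogeneic graft, while the syngeneic hosts were C57BL/6 (B6) mice with a syngeneic graft, and both groups were sampled on day 7 after transplantation. The study asked which molecular pathways IDO1 of myeloid cells regulates, and the syngeneic hosts were its controls. An allogeneic graft and the loss of Ido1 separate these groups together, so their contributions cannot be told apart here. The donor strain, and whether the Gr-1+ cells came from the graft or from the host, are not stated in the labels. KO cells below means cells from KO hosts, and whether the cells themselves lacked Ido1 is not known. The cells were isolated with magnetic beads against Gr-1 (Ly6G), and their RNA was used when purity exceeded 97%. The labels do not state whether each array stands for its own mouse, and p-values therefore reflect array-to-array spread only, part of which may be technical. The KO arrays lay on 1 chip and the syngeneic arrays on another, so chip and group cannot be told apart.

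Gr-1 is a surface antigen of granulocytes, and Gr-1+ cells of the spleen are mainly neutrophils and their precursors, with some monocytes. In graft-versus-host disease, T cells of the graft attack host tissue and release interferon-gamma, which switches on guanylate-binding proteins, immunity-related GTPases, chemokines and antigen presentation genes in myeloid cells. Ido1, itself an interferon-gamma target, encodes indoleamine 2,3-dioxygenase, which starts the breakdown of tryptophan to kynurenine and is known for restraining T cells.

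Each array carried 45281 probes, and 10527 genes had a probe above the background limit of 13.6 signal units on at least 3 of the 6 arrays. Over these genes, KO arrays correlated with each other at r = 0.992 to 0.997, syngeneic arrays at 0.998, and arrays of different groups at 0.964 to 0.970. KO replicate 1 stood somewhat apart from KO replicates 2 and 3 on the second principal component, which held 8.25% of the variance, against 84.8% on the first, which separated the groups. At an adjusted p under 0.05 (limma, Benjamini-Hochberg), 4009 genes were called (38.1%), of which 1945 were higher in KO cells (18.5%) and 2064 lower (19.6%). The groups did not overlap on the log2 scale for 50.3% of the genes. A fit over all 9 arrays of the series, whose estimate of spread takes in the WT arrays, called 1308 genes. Of 175 genes that the rule for named genes chose and the 6 arrays called, 75 were not called in that fit, among them Zap70, Cd6, Bcl11b, Cd247, Gzmk, Ifng, Tbx21, Nkg7, Car2, Rhag, Epor, Tal1, Hmox1, Csf1r, Tnf, Il1rn, Il1b, Plin2, Il1r2, Chil3, Cebpb, Prss34, Fcer1a, Cpa3, Ccl24, Ly96, Prdx2, Gadd45a, Ddit4, Afmid, Ncf1, Ncf4 and Cybb. With WT array 2 left out of the fit over all arrays, 4272 genes were called, and all 175 of these genes kept their calls. No such fit was run without WT array 1 or 3. The median log2 fold change over all genes was 0.02, so counts within a gene list are to be read against the shares called on the 6 arrays. Of the called genes, 191 had a log2 fold change above 1 and 350 one below -1. Some genes named below exceeded the limit on part of a group's arrays. Among them were Alas2, Apol11b, Slc38a5 and Rhag on 2 KO arrays, and Sptb, Blk and Klre1 on 1 KO array. Arg1, Socs1 and Tgtp1 did so on 2 syngeneic arrays, and Uty on 2 arrays of each group. The fold changes of such genes rest partly on signals at background. All log2 fold changes are KO over syngeneic, given with the standard error of the fit over 3 arrays per group, and all signals are deposited intensities in arbitrary units.

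Ido1 gave signals of -2.27, 0.648 and -8.10 in KO cells, against 7.63, 3.87 and 13.3 in syngeneic cells. All 6 values lay under the background limit, so the transcript was not tested, and the probe does not check the labels. Xist, the RNA that silences an X chromosome in female cells, read -9.77, -10.3 and -4.68 in KO cells, against 910.2, 713 and 902 in syngeneic cells (at least 11.3-fold lower, adjusted p = 2.44e-09). Eif2s3y, a translation factor gene of the Y chromosome, read 37.02, 111 and 54.03 in KO cells, against -7.14, -12.2 and -8.36 in syngeneic cells (at least 1.63-fold higher, adjusted p = 2.90e-04). The series matrix has no value for signals at or below 0, so a second, dimmer probe stood for Eif2s3y there. That probe read 17.4, 5.88 and 8.42 in KO cells, against 10.2, 21.3 and 17.6 in syngeneic cells. It exceeded the background limit on 3 of the 6 arrays and was not called (log2 fold change -0.72, adjusted p = 0.328). Uty, the other Y-linked gene tested, read 27.2, 15.5 and 13.4 in KO cells, against 15.5, 14.7 and 12.4 in syngeneic cells and was not called (log2 fold change 0.08, adjusted p = 0.510). The groups did not overlap for Xist and Eif2s3y and overlapped for Uty, the labels give no sex, and the part of this difference in the other results was not tested. Secondary and tertiary granule genes, which define late neutrophil precursors and neutrophils, were abundant in both groups, with signals summed over 15 tested members of 248161 to 254863 on KO arrays and 239971 to 246534 on syngeneic arrays. S100a8, a calcium-binding protein that fills the neutrophil cytoplasm, averaged 30766 ± 1069 in KO cells and 26399 ± 1005 in syngeneic cells (SD, n = 3 arrays each). Granule genes of neutrophils were thus present in both groups, and Ly6g itself was not analysed here. Markers of other cells were present too, since red pulp macrophage genes, over 12 tested members, summed to 33986 to 45794 on KO arrays and 117808 to 120150.0 on syngeneic arrays, and the erythroid sums are given below.

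Genes of the interferon-gamma response were higher in KO cells almost throughout the list. Of 20 tested members (of 24 on the list), 18 rose and 1 fell, with a median log2 fold change of 1.46. Cxcl10, a chemokine that attracts CXCR3-bearing T cells, gave signals of 3286, 4946 and 7479 in KO cells, against 311, 324 and 356 in syngeneic cells (log2 fold change 3.66 ± 0.23, adjusted p = 8.68e-07). Cxcl9, which acts on the same receptor, read 7721, 7743 and 9545 in KO cells, against 808, 889 and 833 in syngeneic cells (log2 fold change 3.20 ± 0.10, adjusted p = 5.99e-09). Both chemokines were among the 15 largest rises, for which separate groups were required. KO replicate 1 was the lowest KO array for Cxcl10. Gbp2, a guanylate-binding protein that attacks vacuoles of intracellular pathogens, read 25531, 25426 and 27677 in KO cells, against 4171, 4390.4 and 4417 in syngeneic cells (log2 fold change 2.58 ± 0.08, adjusted p = 4.98e-09). Gbp7, of the same family, read 1205, 1326 and 1052 in KO cells, against 197, 168 and 193 in syngeneic cells (log2 fold change 2.32 ± 0.10, adjusted p = 4.43e-08). Igtp, an immunity-related GTPase, read 12292, 14479 and 12479 in KO cells, against 2519, 2547 and 2663 in syngeneic cells (log2 fold change 2.31 ± 0.09, adjusted p = 1.92e-08). These GTPases differed little among the arrays of a group, and for none of the 3 did a KO value come near the syngeneic values. Gbp2b, the gene for GBP1 of the mouse, read 629.9, 633 and 671 in KO cells, against 6.52, 6.22 and 9.10 in syngeneic cells, and only its KO signals exceeded the background limit (at least 8.87-fold higher, adjusted p = 1.53e-09).

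The remaining members that rose had log2 fold changes between 0.36 (Fcgr4, an activating Fc receptor) and 2.08 (Cd274, which encodes PD-L1, the ligand of the inhibitory receptor PD-1). Cd274 signals were 3529.6, 4423 and 4701 in KO cells, against 897, 919 and 1003 in syngeneic cells (log2 fold change 2.08 ± 0.11, adjusted p = 2.45e-07). Irf1, a transcription factor that relays the interferon-gamma signal, rose by 1.12 and Socs1, which inhibits JAK kinases, by 1.19. Irf8, a factor of monocyte and dendritic cell development, was the 1 member that fell (log2 fold change -0.48 ± 0.15, adjusted p = 0.0298), although its groups overlapped, and its call was lost without KO replicate 3, syngeneic replicate 1 or syngeneic replicate 3. Nos2, the inducible nitric oxide synthase, was not called (log2 fold change -0.14 ± 0.13, adjusted p = 0.432). Gbp4, Gbp6 and Iigp1 were on the array but below the filter. Batf2, an interferon-induced partner of JUN proteins, read 1271, 1047 and 1215 in KO cells, against 91.9, 115 and 115 in syngeneic cells (log2 fold change 2.84 ± 0.09, adjusted p = 1.01e-08), and Serpina3f, a protease inhibitor, read 7254, 8321 and 8689 in KO cells, against 788, 853 and 708 in syngeneic cells (log2 fold change 3.26 ± 0.10, adjusted p = 5.04e-09). Neither belongs to the list, and both were among the 15 genes with the largest rises.

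**Figure D1:**
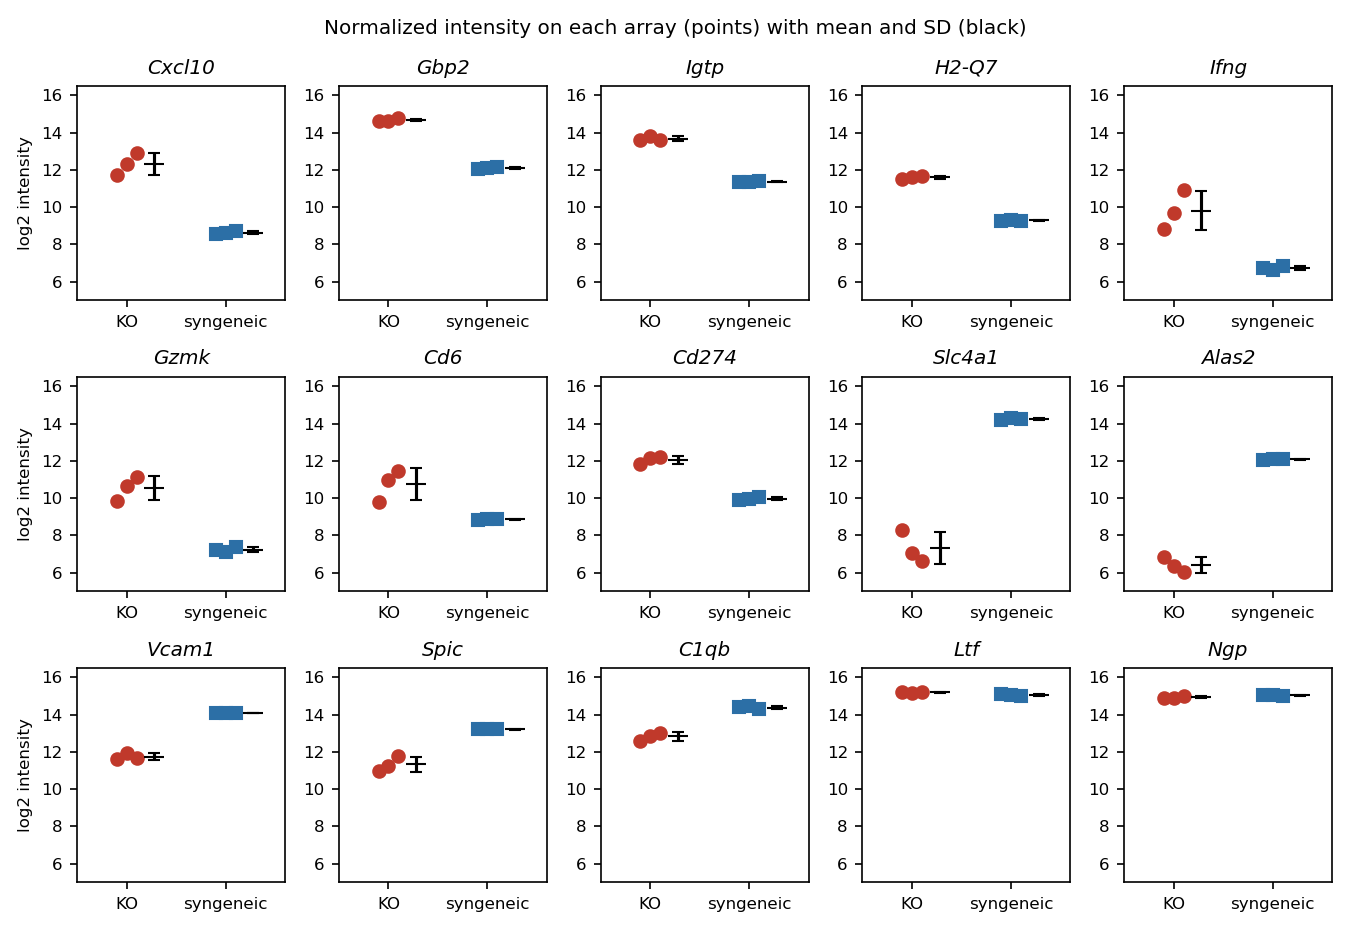
Normalized log2 intensity of 15 genes on each of the 3 KO arrays (red circles) and 3 syngeneic arrays (blue squares), with mean and SD in black. The interferon targets Cxcl10, Gbp2 and Igtp sit above their syngeneic values on every KO array, Slc4a1, Alas2, Vcam1, Spic and C1qb below them, and the granule genes Ltf and Ngp, with log2 fold changes of 0.14 and -0.10, near them.

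The promoters of 4 interferon-gamma targets and of Isg15, a type I interferon target, are shown because these genes rose together and carry the motifs through which STAT and IRF factors act. Each is the 250 bases before the annotated transcript start, 5′ to 3′ on the strand of the gene, from RefSeq (GRCm38.p6), and capitals mark matches to the core of the interferon-stimulated response element (ISRE), which is 2 copies of GAAA with 2 bases of any kind between them, or to the gamma-activated sequence (GAS), TTCNNNGAA, on either strand. The motifs may overlap.
Gbp2, chr3:142620413-142620662, plus strand: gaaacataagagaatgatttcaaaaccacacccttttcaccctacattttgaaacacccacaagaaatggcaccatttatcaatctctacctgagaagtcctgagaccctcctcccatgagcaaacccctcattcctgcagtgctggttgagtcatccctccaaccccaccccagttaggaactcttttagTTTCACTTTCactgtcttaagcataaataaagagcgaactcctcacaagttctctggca
Igtp, chr11:58199306-58199555, plus strand: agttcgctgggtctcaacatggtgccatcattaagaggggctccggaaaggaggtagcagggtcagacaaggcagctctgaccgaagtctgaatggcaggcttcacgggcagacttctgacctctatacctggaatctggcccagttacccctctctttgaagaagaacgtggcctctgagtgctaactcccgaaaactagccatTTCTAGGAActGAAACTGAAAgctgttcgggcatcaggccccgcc
Tgtp1, chr11:48992247-48992496, minus strand: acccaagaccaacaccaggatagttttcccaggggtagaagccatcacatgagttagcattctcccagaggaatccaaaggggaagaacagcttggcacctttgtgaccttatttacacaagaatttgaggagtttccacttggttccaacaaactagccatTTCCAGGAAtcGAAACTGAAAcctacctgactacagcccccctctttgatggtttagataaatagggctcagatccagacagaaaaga
Irgm2, chr11:58214727-58214976, plus strand: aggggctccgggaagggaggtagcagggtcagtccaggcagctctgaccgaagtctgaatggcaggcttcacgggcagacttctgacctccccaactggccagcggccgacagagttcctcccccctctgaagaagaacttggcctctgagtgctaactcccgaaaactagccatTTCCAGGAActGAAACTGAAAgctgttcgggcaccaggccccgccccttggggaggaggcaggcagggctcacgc
Isg15, chr4:156200819-156201068, minus strand: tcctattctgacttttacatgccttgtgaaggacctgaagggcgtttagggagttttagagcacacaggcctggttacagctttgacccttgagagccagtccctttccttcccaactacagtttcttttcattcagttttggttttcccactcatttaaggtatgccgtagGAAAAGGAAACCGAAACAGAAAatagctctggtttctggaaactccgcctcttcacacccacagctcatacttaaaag

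In Igtp, Tgtp1 and Irgm2, a GAS match began 11 bases before an ISRE match, and both lay within 88 bases of the start. Gbp2 held 1 ISRE match, on the opposite strand and 59 bases before the start, and Isg15 held 3 overlapping ISRE matches. Tgtp1, an interferon-inducible GTPase, read 231, 161 and 164 in KO cells, against 10.2, 16.04 and 15.5 in syngeneic cells (log2 fold change 1.63 ± 0.11, adjusted p = 1.35e-06), and Irgm2, a regulator of the immunity-related GTPases, read 6237, 7276 and 6119 in KO cells, against 2240.4, 2433 and 2523 in syngeneic cells (log2 fold change 1.42 ± 0.09, adjusted p = 1.06e-06). Both genes were chosen for display after their values were seen, as were Igtp, Gbp2 and Isg15, and Tgtp1 has a near-identical copy from which the probe may not tell it apart. Over windows of 300 bases (250 before and 50 after the start), 3.49% of 27025 RefSeq promoters held the ISRE core, as did 3.35% of the promoters of tested genes. The share was 6.52% among genes called higher in KO cells (103 of 1580) and 2.06% among genes called lower (34 of 1653). Of the members of the interferon-gamma list that rose and have a promoter entry, 11 of 16 held the ISRE core. The GAS was found in 8.47% of all promoters, 7.16% of those of tested genes, 9.24% of those called higher and 5.81% of those called lower, and in 7 of the 16 members. The 1 member of the interferon-gamma list that fell held the GAS and not the ISRE core. A match describes these letters only and is no evidence of binding.

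The type I interferon response, the antiviral programme that overlaps with that of interferon-gamma, was also higher in KO cells. The list had 26 genes and 21 were tested, of which 17 rose and 1 fell, with a median log2 fold change of 0.88, below that of the interferon-gamma list. Isg15, a ubiquitin-like protein that is attached to other proteins in infected cells, gave signals of 9627, 11144 and 11890.3 in KO cells, against 3210.5, 3551 and 3237 in syngeneic cells (log2 fold change 1.68 ± 0.09, adjusted p = 3.99e-07). Irf7, the factor that amplifies interferon production, read 1614, 1878 and 2337 in KO cells, against 453, 474 and 481 in syngeneic cells (log2 fold change 1.89 ± 0.12, adjusted p = 9.22e-07). Oasl2, of the oligoadenylate synthetase family, read 1675, 1921 and 1992 in KO cells, against 511, 482 and 568 in syngeneic cells (log2 fold change 1.72 ± 0.09, adjusted p = 2.98e-07). The KO arrays lay above the syngeneic arrays for all 3 genes, and for Oasl1, of the same family, as well (log2 fold change 1.87 ± 0.12, adjusted p = 1.21e-06). Rsad2, which encodes the antiviral enzyme viperin, went the other way (log2 fold change -0.43 ± 0.10, adjusted p = 0.00681). Mx1, Mx2 and Irf9 were not called, with log2 fold changes of 0.30, 0.36 and 0.18. Of the members with a promoter entry that rose, 8 of 12 held the ISRE core, as did the 1 that fell. Stat2, a factor that relays type I interferon signals, rose (log2 fold change 0.96 ± 0.08, adjusted p = 4.86e-06).

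Antigen presentation genes rose nearly without exception. In the MHC class I pathway, 17 of 18 members were tested, and 16 rose and 0 fell, with a median log2 fold change of 1.13. Tap1, a subunit of the pump that brings peptides into the endoplasmic reticulum, read 2403, 2752 and 2587 in KO cells, against 698, 720.4 and 785 in syngeneic cells (log2 fold change 1.72 ± 0.08, adjusted p = 1.34e-07). Nlrc5, the factor that switches on class I genes, read 1546, 1825 and 1980.2 in KO cells, against 465, 478 and 517 in syngeneic cells (log2 fold change 1.74 ± 0.10, adjusted p = 4.16e-07). Psmb10, a subunit of the immunoproteasome, read 13985, 13856 and 13894 in KO cells, against 5347, 6112 and 5730.0 in syngeneic cells (log2 fold change 1.27 ± 0.08, adjusted p = 7.54e-07). All 3 genes showed tight arrays within each group and no overlap between groups. H2-Q7, a non-classical class I gene, read 2884, 3099 and 3196 in KO cells, against 558, 574 and 557 in syngeneic cells (log2 fold change 2.31 ± 0.07, adjusted p = 7.84e-09), and H2-Q6 and H2-Q8 had log2 fold changes of 2.64 and 2.60. These 3 genes are near-identical, so a probe may read several of them, and which one changed is uncertain. B2m, the invariant light chain of class I molecules, was not called (log2 fold change 0.13 ± 0.08, adjusted p = 0.241). The ISRE core stood in 2 of 13 promoters of the members that rose.

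MHC class II genes, which present peptides to CD4+ T cells, were higher as well, with a smaller median. Among 10 genes listed, 10 could be tested, and 8 rose and 0 fell, with a median log2 fold change of 0.82. H2-Aa, the alpha chain of the I-A molecule, read 390.3, 338 and 319.9 in KO cells, against 108, 97.5 and 99.2 in syngeneic cells (log2 fold change 1.30 ± 0.08, adjusted p = 1.21e-06). Ciita, the master regulator of class II genes, read 747, 675 and 704 in KO cells, against 274, 275 and 311 in syngeneic cells (log2 fold change 1.13 ± 0.08, adjusted p = 2.00e-06). H2-DMb1, of the peptide exchange factor, rose by 1.21 and H2-Eb1, a beta chain, by 0.96. The syngeneic arrays lay below the KO arrays for each of these 4 genes. The protease gene Ctss and H2-Ob were not called.

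Transcripts of T cells were higher on KO arrays, with wide spread among them. In all 12 genes rose and 0 fell of 14 tested and 18 listed, and the median log2 fold change was 0.89. Against the syngeneic mean, the median of the 14 members was 0.26, 0.98 and 1.52 on KO replicates 1, 2 and 3, so the list was raised least on replicate 1 and most on replicate 3. The summed signal was 15819 to 29762 on KO arrays and 12495 to 13000.2 on syngeneic arrays. Cd6, a co-receptor of T cells, read 823, 1937 and 2789.6 in KO cells, against 384, 399 and 413 in syngeneic cells (log2 fold change 1.89 ± 0.32, adjusted p = 0.00119). Zap70, the kinase that relays the T cell receptor signal, read 639, 1076 and 1619 in KO cells, against 321, 319.8 and 384 in syngeneic cells (log2 fold change 1.45 ± 0.25, adjusted p = 0.00111). Bcl11b, a factor of T cell identity, read 309, 687 and 956 in KO cells, against 184, 172 and 159.9 in syngeneic cells (log2 fold change 1.47 ± 0.28, adjusted p = 0.00234), and Cd247, the zeta chain of the receptor complex, rose by 1.21. No KO value of these genes fell among the syngeneic values. Cd8b1, a chain of the CD8 co-receptor, averaged 5137 ± 475 in KO cells and 4655 ± 192 in syngeneic cells and was not called, and Lck was not analysed here. Dimmer probes of Cd8b1 had log2 fold changes of -0.40 and -0.37, so its probes disagree. The brighter of these read 2036, 3459 and 5567 in KO cells, against 4419, 4575 and 4513 in syngeneic cells. Without KO replicate 2, 7 members were called, without syngeneic replicate 3, 6 were, and 0 were in a fit over all 9 arrays of the series. In RNA of a cell population, fewer cells of a type and less RNA per cell cannot be told apart, which holds for all cell type markers below.

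Genes of NK cells and cytotoxic lymphocytes split. Of 12 tested members (of 15 on the list), 7 rose and 4 fell. Gzmk, a granzyme of activated CD8+ T cells, read 868, 1523 and 2179.6 in KO cells, against 81.02, 73.7 and 99.05 in syngeneic cells (log2 fold change 3.31 ± 0.25, adjusted p = 3.30e-06). Ifng, which encodes interferon-gamma, read 390.1, 754 and 1907 in KO cells, against 38.5, 31.3 and 46.9 in syngeneic cells (log2 fold change 3.10 ± 0.40, adjusted p = 1.74e-04). Both were lowest on KO replicate 1 and highest on KO replicate 3, in the order of the T cell list, and in the fit over all 9 arrays neither passed (adjusted p = 0.0548 and 0.0556). Tbx21, the T-bet factor of interferon-gamma-producing lymphocytes, read 84.4, 143 and 213 in KO cells, against 36.00, 40.5 and 38.2 in syngeneic cells (log2 fold change 0.98 ± 0.18, adjusted p = 0.00163). Nkg7, a protein of cytotoxic granules, rose by 0.62. Klre1, a receptor of NK cells, read -0.0876, 10.8 and 16.3 in KO cells, against 88.5, 88.01 and 77.6 in syngeneic cells (log2 fold change -1.01 ± 0.09, adjusted p = 1.84e-05) and exceeded the background limit on 1 KO array, and Klrd1, Xcl1 and Eomes fell by less. With 1 syngeneic array left out (each of replicates 1, 2 and 3 in turn), 2 of the 4 lower members were called. Gzmb, Ncr1 and Klrb1c gave no call, the first pair being below the filter. The interferon-gamma list, with medians of 1.32, 1.52 and 1.49 on KO replicates 1, 2 and 3 against the syngeneic mean, spread less over the KO arrays than the T cell list, and the part of T cell RNA in the other results was not tested.

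**Figure D2:**
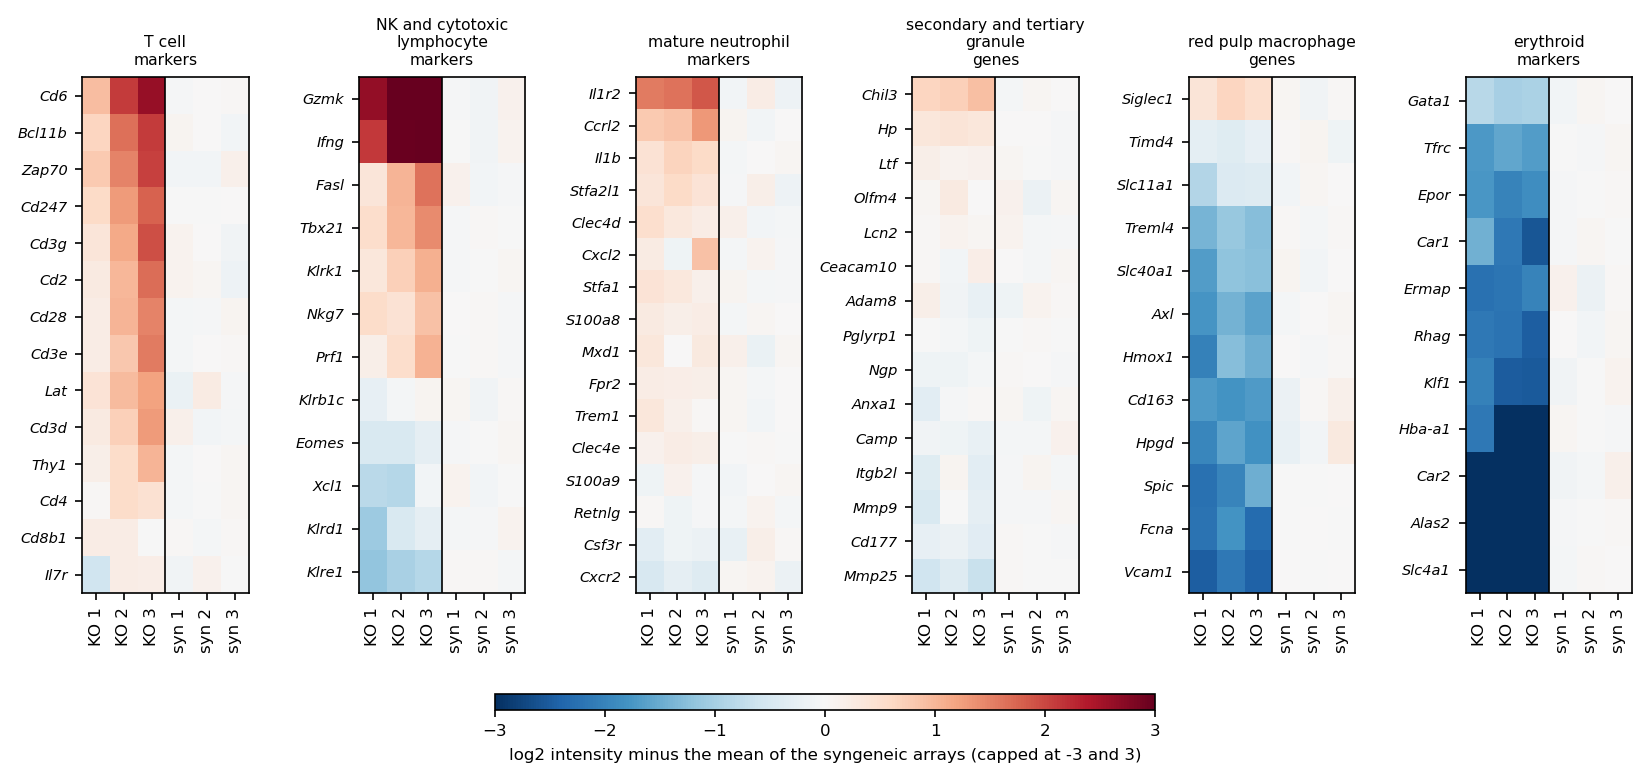
Log2 intensity of the tested members of 6 cell type lists on each KO array (KO 1 to 3) and each syngeneic array (syn 1 to 3), minus the mean of the syngeneic arrays and capped at -3 and 3, with red higher and blue lower. T cell genes are palest on KO 1 and darkest on KO 3, erythroid and red pulp macrophage genes are blue on all 3 KO arrays except for Siglec1, and granule genes stay close to the syngeneic mean.

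CC chemokines, which draw monocytes, T cells and eosinophils, were higher in KO cells except for 1. The list had 12 genes and 8 were tested, of which 7 rose and 1 fell, with a median log2 fold change of 1.37, and 4 rose in the fit over all 9 arrays. Ccl7, 1 of the 7, passed the filter through the KO arrays alone, so its direction was set by the filter. Ccl6 read 1722, 1426 and 1697 in KO cells, against 634, 621 and 700.3 in syngeneic cells (log2 fold change 1.22 ± 0.09, adjusted p = 3.54e-06), and Ccl12, a ligand of CCR2 in the mouse, read 121, 111 and 226 in KO cells, against 14.1, 16.1 and 18.2 in syngeneic cells (log2 fold change 1.37 ± 0.16, adjusted p = 9.78e-05). Ccl24, an eosinophil attractant known as eotaxin-2, rose by 1.36. Ccl9 went against the list, with signals of 2390.4, 2042 and 2401 in KO cells, against 6961, 6992 and 6939 in syngeneic cells (log2 fold change -1.59 ± 0.08, adjusted p = 2.64e-07). The KO values of Ccl9 lay below its syngeneic values on every array. Ccl3 and Ccl4, chemokines of activated macrophages and T cells, had log2 fold changes of 2.16 and 2.24 and are named after their values were seen.

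The largest falls in KO cells were of genes of red blood cell formation. Among 19 genes listed, 11 could be tested, and 0 rose and 11 fell, with a median log2 fold change of -2.28 and summed signals of 2365 to 10222 on KO arrays and 68308 to 69171 on syngeneic arrays. Slc4a1, the anion exchanger of the red cell membrane known as band 3, read 251, 68.5 and 32.4 in KO cells, against 18399, 19773 and 19395 in syngeneic cells (log2 fold change -6.89 ± 0.33, adjusted p = 1.22e-07). Alas2, which starts haem synthesis in erythroid cells, read 49.05, 15.9 and -1.17 in KO cells, against 4192, 4265 and 4375 in syngeneic cells (log2 fold change -5.67 ± 0.17, adjusted p = 5.04e-09). Car2, a carbonic anhydrase, read 105, 83.7 and 56.7 in KO cells, against 1954, 2027 and 2341 in syngeneic cells (log2 fold change -3.88 ± 0.12, adjusted p = 6.53e-09). For all 3 genes the syngeneic arrays agreed closely, and KO replicate 1 was the highest of the KO arrays. Hba-a1, the alpha chain of haemoglobin, read 8321, 2441 and 961 in KO cells, against 38714, 36778 and 35983 in syngeneic cells (log2 fold change -3.74 ± 0.56, adjusted p = 5.07e-04), and Hbb-bs, a beta chain, read 9203, 3597 and 1336 in KO cells, against 47219, 47219 and 47219 in syngeneic cells (log2 fold change -3.71 ± 0.50, adjusted p = 2.62e-04). Hbb-bs reached the highest signal of the table, 47219, on all 3 syngeneic arrays, so its difference is a lower limit, and alpha and beta globin genes have near-identical copies that these probes may share.

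Other genes among the 15 largest falls, which were named for their size and form no list, included Sptb, Trim10, Kel and Dmtn. Sptb, the beta chain of spectrin, read 20.6, 10.6 and 11.9 in KO cells, against 1514, 1639 and 1729 in syngeneic cells (log2 fold change -4.39 ± 0.08, adjusted p = 1.04e-09). Trim10, a tripartite motif protein of erythroid cells, read 9.26, 5.96 and -0.152 in KO cells, against 2503, 2450.1 and 2189.6 in syngeneic cells (at least 30.5-fold lower, adjusted p = 5.59e-10). Kel, the Kell blood group antigen, read 2.48, -1.12 and -10.8 in KO cells, against 1309, 1382 and 1471 in syngeneic cells (at least 18.1-fold lower, adjusted p = 1.53e-09), and Dmtn, which encodes dematin, an actin-bundling protein of the red cell skeleton, read 7.04, -0.695 and -3.40 in KO cells, against 869, 827 and 874 in syngeneic cells (at least 11.5-fold lower, adjusted p = 1.53e-09). The last 3 genes were above the background limit on all syngeneic arrays and on 0 KO arrays. Aqp1, a water channel, had a log2 fold change of -4.69, Slc38a5, an amino acid transporter, one of -4.27, Apol11b, an apolipoprotein L gene, one of -5.37 and Prxl2a, a peroxiredoxin-like gene, one of -3.66. Rhag, of the Rhesus complex, and Epor, the erythropoietin receptor, fell by 2.28 and 1.88 on the log2 scale. The value of Rhag, which exceeded the background limit on 2 KO arrays, is also the median of the erythroid markers. In the fit over all 9 arrays, 3 of the 11 erythroid markers were called, and 2 of the 11 passed the filter through the syngeneic arrays alone. Of 8 erythroid members with a promoter entry, 2 held the GATA motif AGATAA, against 6.78% of the promoters of tested genes, 0 held CCACACCC (3.98%), and 0 held the ISRE core or the GAS.

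**Figure D3:**
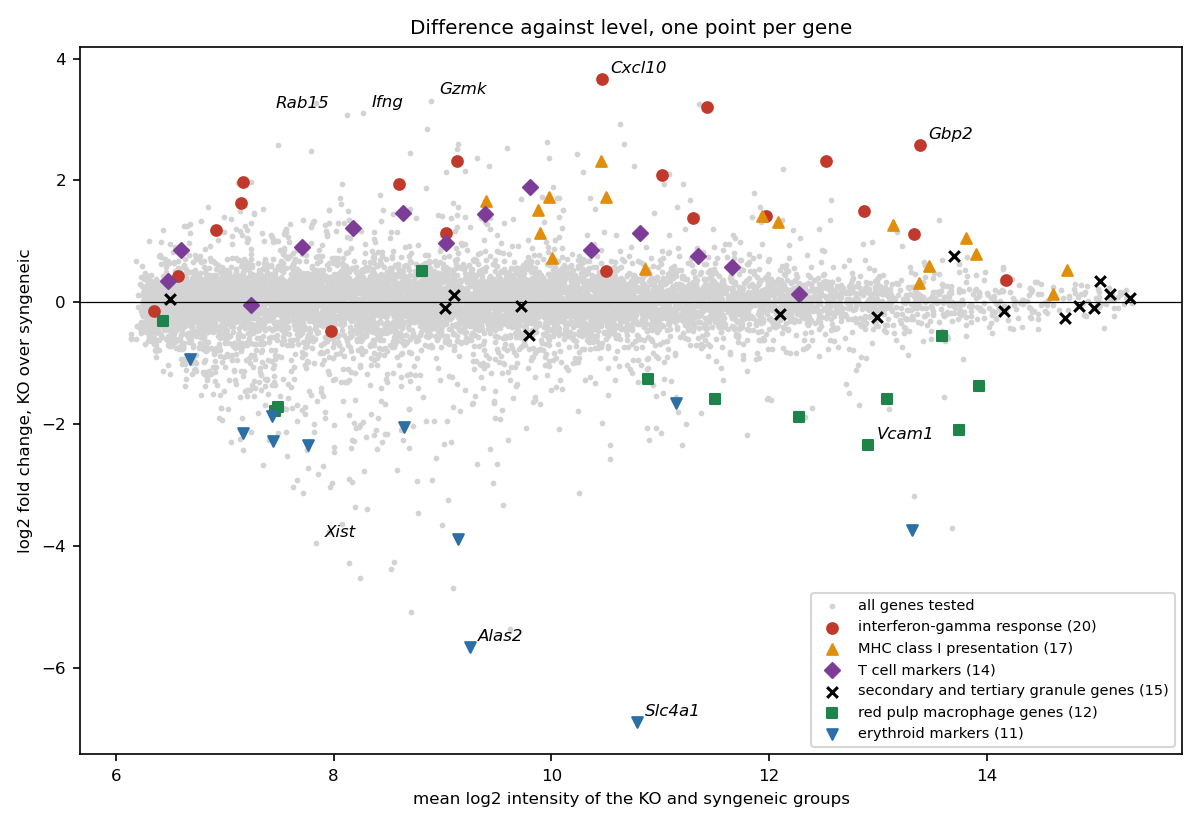
Log2 fold change of KO over syngeneic cells (y axis) against the mean log2 intensity of both groups (x axis), 1 point per tested gene, with 6 lists marked by colour and shape. Erythroid markers reach a log2 fold change of -6.89, interferon-gamma targets one of 3.66, and the granule genes run along 0 at high intensity.

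Macrophage genes formed the other large group that was lower in KO cells. Among genes of red pulp macrophages, the cells that clear aged red cells and recycle their iron, 12 of 14 members were tested, and 1 rose and 11 fell, with a median log2 fold change of -1.59 and summed signals of 33986 to 45794 on KO arrays and 117808 to 120150.0 on syngeneic arrays. Vcam1, an adhesion molecule, read 3048, 3868 and 3182 in KO cells, against 17537, 17118 and 17369 in syngeneic cells (log2 fold change -2.35 ± 0.10, adjusted p = 3.95e-08). Fcna, the lectin ficolin A, read 6061, 8128 and 5674 in KO cells, against 28018, 28822 and 28266 in syngeneic cells (log2 fold change -2.11 ± 0.12, adjusted p = 5.19e-07). Cd163, the receptor for haemoglobin bound to haptoglobin, read 34.6, 27.3 and 34.6 in KO cells, against 220.5, 267 and 298 in syngeneic cells (log2 fold change -1.73 ± 0.10, adjusted p = 4.07e-07), and Axl, a receptor for dying cells, fell by 1.59 on the log2 scale. The KO arrays lay below the syngeneic arrays for each of these genes. Spic, the factor on which red pulp macrophages depend, read 1941, 2354 and 3407 in KO cells, against 9450.1, 9360.2 and 9580.1 in syngeneic cells (log2 fold change -1.89 ± 0.16, adjusted p = 9.81e-06) and is named after its value was seen, as is Slc40a1, the iron exporter ferroportin (log2 fold change -1.38 ± 0.12, adjusted p = 1.20e-05). Slc11a1, a metal transporter of phagosomes, fell less (log2 fold change -0.55 ± 0.13, adjusted p = 0.00643). Siglec1, a sialic acid receptor that interferon induces, was the 1 member that rose (log2 fold change 0.51 ± 0.09, adjusted p = 0.00153). In the fit over all 9 arrays 7 of the 11 lower members were called.

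Among markers of monocytes and macrophages in general, 14 of 17 members were tested, and 2 rose and 10 fell, with a median log2 fold change of -1.39. C1qc, a chain of complement C1q, which tissue macrophages make, read 4423, 4825 and 4940.0 in KO cells, against 15733, 16524 and 15928 in syngeneic cells (log2 fold change -1.75 ± 0.08, adjusted p = 6.31e-08). C1qa, another chain, read 1130.3, 1418 and 1242 in KO cells, against 3994, 3849.8 and 3605 in syngeneic cells (log2 fold change -1.55 ± 0.09, adjusted p = 7.09e-07). Mrc1, the mannose receptor, read 989, 1295 and 1214 in KO cells, against 3976, 3965 and 4719.6 in syngeneic cells (log2 fold change -1.80 ± 0.11, adjusted p = 8.43e-07). Cx3cr1, the fractalkine receptor of patrolling monocytes and tissue macrophages, read 53.2, 92.1 and 112 in KO cells, against 597, 544 and 489.9 in syngeneic cells (log2 fold change -2.02 ± 0.14, adjusted p = 1.59e-06). No gene of these 4 had overlapping groups. Csf1r, the receptor through which monocytes and macrophages receive their survival signal, fell as well (log2 fold change -1.37 ± 0.10, adjusted p = 2.00e-06). The 2 members that rose were Fcgr1, the interferon-inducible high-affinity Fc receptor (log2 fold change 0.57 ± 0.10, adjusted p = 0.00183), and Ly6c1 (log2 fold change 0.33 ± 0.08, adjusted p = 0.00906), and without KO replicate 1 the number was 4. Cd86, a co-stimulatory ligand of T cells carried by antigen-presenting cells, read 1097, 1585 and 1397 in KO cells, against 5166, 4722 and 4828 in syngeneic cells (log2 fold change -1.82 ± 0.12, adjusted p = 1.30e-06).

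Neutrophil genes had medians near 0 beside these lists. In all 7 genes rose and 1 fell of 16 tested and 19 listed, with a median log2 fold change of 0.22 and summed signals of 135134 to 137169 on KO arrays and 119711 to 123450.0 on syngeneic arrays. Il1r2, the decoy receptor that binds interleukin-1 without signalling, read 3970.4, 4199.6 and 4953 in KO cells, against 1244, 1535 and 1181 in syngeneic cells (log2 fold change 1.68 ± 0.12, adjusted p = 1.68e-06). Ccrl2, a receptor that presents chemerin, read 345, 364 and 517 in KO cells, against 185, 158 and 171 in syngeneic cells (log2 fold change 0.98 ± 0.13, adjusted p = 1.71e-04), and Il1b, which encodes interleukin-1 beta, rose by 0.56. The groups stood apart for all 3. Stfa2l1, of the stefin A family of protease inhibitors, rose by 0.45. S100a8 rose by 0.22, a call that was lost without KO replicate 1 or 3 or any 1 of the 3 syngeneic arrays. Without syngeneic replicate 2 or 3, 4 members rose, and 1 did in the fit over all 9 arrays. Cxcr2, the receptor that guides neutrophils out of the marrow, was the 1 member that fell (log2 fold change -0.37 ± 0.10, adjusted p = 0.0118), and 0 fell without syngeneic replicate 2.

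Among primary granule and promyelocyte genes, 3 of 10 tested members rose and 0 fell. Ms4a3, a gene of granulocyte-monocyte precursors, read 7984, 7697 and 7494 in KO cells, against 4447, 4334 and 4039.6 in syngeneic cells (log2 fold change 0.84 ± 0.08, adjusted p = 1.32e-05), and Gfi1, a factor of granulocyte formation, read 1545, 1292 and 1608 in KO cells, against 796, 907 and 770.1 in syngeneic cells (log2 fold change 0.79 ± 0.10, adjusted p = 1.57e-04). Hp, which encodes haptoglobin and stands on both granule lists, rose by 0.35. Elane, the neutrophil elastase, had a log2 fold change of 0.25 and was not called. Among secondary and tertiary granule genes, 15 of 16 members were tested, and 2 rose and 2 fell, with a median log2 fold change of -0.06. Chil3, a chitinase-like lectin, read 15839.8, 16737 and 19031 in KO cells, against 9756, 10557 and 10172 in syngeneic cells (log2 fold change 0.75 ± 0.09, adjusted p = 9.13e-05), whereas Mmp25, a membrane-bound protease, fell (log2 fold change -0.55 ± 0.09, adjusted p = 6.74e-04). Cd177, a surface protein of neutrophils, fell by 0.26 on the log2 scale, a call lost without KO replicate 3 or any 1 syngeneic array. The number of lower granule genes was 4 without KO replicate 2 and 1 without KO replicate 3 or any 1 syngeneic array. Lcn2, the iron-binding lipocalin of secondary granules, averaged 41702 ± 1019 in KO cells and 39868 ± 2575 in syngeneic cells and was not called.

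Of 10 tested eosinophil, basophil and mast cell markers (16 on the list), 6 rose and 1 fell, with a median log2 fold change of 0.52, or 0.38 with the member at the background limit set to its bound. Prss34, a basophil protease, read 4203, 4014 and 5203 in KO cells, against 944, 970.0 and 1024 in syngeneic cells (log2 fold change 2.11 ± 0.10, adjusted p = 1.38e-07), and Fcer1a, the IgE-binding chain of the high-affinity IgE receptor, read 541, 431 and 619 in KO cells, against 154, 135 and 133 in syngeneic cells (log2 fold change 1.52 ± 0.11, adjusted p = 3.38e-06). Cpa3, a protease of mast cells and basophils, rose by 1.35. The eosinophil receptor Ccr3 went the other way, with signals of 59.7, 84.01 and 52.05 in KO cells, against 359, 332 and 328 in syngeneic cells (log2 fold change -1.63 ± 0.10, adjusted p = 6.62e-07), and Prg2, the major basic protein of eosinophils, was not called (-0.11). In the fit over all 9 arrays 0 members rose, and the number that fell was 2 without KO replicate 1. Among dendritic cell markers, 7 of 12 members were tested, and 1 rose and 5 fell. Siglech, of plasmacytoid dendritic cells, had a log2 fold change of -1.44, Clec9a, of cross-presenting dendritic cells, -0.94, and Batf3, the factor of the same cells, -0.48. Bst2, which rose by 1.52, is also an interferon target, and 3 members fell without syngeneic replicate 2 or 3.

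Among markers of other lineages, those of megakaryocytes and of progenitors held the largest falls, Vwf and Tal1. Among B cell markers, 6 of 13 members were tested, and 2 rose and 3 fell, where Cd79b, Blk and Vpreb3 had log2 fold changes of -0.57, -0.53 and -0.58, and the calls of Cd37 and Ebf1 (0.28 and 0.22) were both lost without KO replicate 2 or any 1 syngeneic array, and 1 of them without KO replicate 1 or 3. Among plasma cell markers, 6 of 12 members were tested, and 2 rose and 3 fell. Mzb1, a chaperone of antibody secretion, and Tnfrsf17, the survival receptor BCMA, fell (-0.45 and -0.59), while Xbp1 and Creld2, which also belong to the unfolded protein response, rose (0.50 and 0.55). Among megakaryocyte and platelet markers, 8 of 14 members were tested, and 1 rose and 6 fell. Vwf, the von Willebrand factor of platelets and endothelium, read 51.1, 46.5 and 41.03 in KO cells, against 349, 313 and 349 in syngeneic cells (log2 fold change -1.84 ± 0.08, adjusted p = 4.95e-08). Gp6, the 1 member that rose, lost its call without KO replicate 3 or any 1 syngeneic array. Among progenitor markers, 9 of 12 members were tested, and 2 rose and 3 fell. Tal1, which is also a factor of erythroid cells, read 60.2, 28.5 and 24.8 in KO cells, against 699.9, 754 and 758 in syngeneic cells (log2 fold change -2.96 ± 0.12, adjusted p = 3.60e-08). Gata2, a factor of progenitors, mast cells and basophils, rose by 0.59, and 1 progenitor marker rose without KO replicate 3 or syngeneic replicate 1 or 3.

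The enzymes of tryptophan breakdown, the pathway that Ido1 opens, were mostly dim. Of 13 members, 7 were tested, 3 rose and 2 fell, and the median log2 fold change was 0.20. Wars, the tryptophan tRNA ligase that interferon-gamma induces, read 1623, 1736 and 1693 in KO cells, against 558, 617 and 616 in syngeneic cells (log2 fold change 1.40 ± 0.08, adjusted p = 3.38e-07). Kyat3, a kynurenine aminotransferase, read 344, 391 and 289 in KO cells, against 192, 186 and 192 in syngeneic cells (log2 fold change 0.66 ± 0.10, adjusted p = 4.08e-04). Kynu, or kynureninase, read 54.02, 56.4 and 45.03 in KO cells, against 16.3, 20.7 and 17.4 in syngeneic cells (log2 fold change 0.48 ± 0.08, adjusted p = 6.63e-04), just above the background limit in syngeneic cells. The KO arrays exceeded the syngeneic arrays for these 3 genes. Afmid, which turns formylkynurenine into kynurenine, read 92.3, 86.1 and 84.3 in KO cells, against 188, 172 and 190.3 in syngeneic cells (log2 fold change -0.70 ± 0.07, adjusted p = 4.68e-05). The number of lower members was 1 without KO replicate 2 or 3 or without syngeneic replicate 2 or 3. Ido2, a relative of Ido1, averaged 11.4 ± 3.07 in KO cells and 7.88 ± 1.71 in syngeneic cells, and Kmo, which hydroxylates kynurenine, averaged -1.61 ± 2.88 in KO cells and -5.10 ± 0.476 in syngeneic cells (SD, n = 3 arrays each), so neither was tested. Of 6 targets of the aryl hydrocarbon receptor, which kynurenine can activate, 2 were tested and 0 called at p adjusted by limma (unadjusted p = 0.151 for Nqo1 and 0.418 for Ahrr), and 1 fell without KO replicate 2.

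Lack of amino acids, tryptophan among them, is sensed by the kinase GCN2, which acts through ATF4. Among genes of that response, 15 of 19 members were tested, and 6 rose and 3 fell, with a median log2 fold change of 0.12. Phgdh, the first enzyme of serine synthesis, read 908, 835 and 968 in KO cells, against 461, 469.6 and 491 in syngeneic cells (log2 fold change 0.84 ± 0.08, adjusted p = 2.02e-05), and Psat1, of the same route, read 1559, 1815 and 1805 in KO cells, against 1019.5, 1047 and 905 in syngeneic cells (log2 fold change 0.76 ± 0.09, adjusted p = 1.05e-04). Gadd45a, a stress protein, read 2576, 2232 and 2226 in KO cells, against 4251, 4506 and 3849.8 in syngeneic cells (log2 fold change -0.82 ± 0.09, adjusted p = 6.48e-05), and Ddit4, an inhibitor of mTORC1, read 1235, 1328 and 1483 in KO cells, against 2226, 2356 and 2271 in syngeneic cells (log2 fold change -0.74 ± 0.08, adjusted p = 8.36e-05). The list thus held genes that stood apart in either direction. In the unfolded protein response, which answers a load of proteins in the endoplasmic reticulum, 14 of 16 members were tested, and 9 rose and 0 fell, with a median log2 fold change of 0.50. The disulfide isomerases Pdia6 and Pdia4 rose by 0.89 and 0.82, and the chaperone partner Sdf2l1 by 0.62. Among immediate early and heat shock genes, which respond within minutes to handling and to signals, 14 of 16 members were tested, and 7 rose and 0 fell. Egr1, an early response factor, read 191, 290.2 and 427 in KO cells, against 97.2, 98.6 and 110.2 in syngeneic cells (log2 fold change 1.08 ± 0.19, adjusted p = 0.00123), and Jun, Ier3 and Hsp90aa1 rose by 0.64, 0.63 and 0.61.

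Metabolic lists had smaller medians than the interferon lists. Among PPAR targets and genes of fatty acid oxidation, 13 of 22 members were tested, and 8 rose and 2 fell, with a median log2 fold change of 0.49. Acot1, an acyl-CoA thioesterase, read 7479, 5347 and 7089 in KO cells, against 2272, 2087 and 2195 in syngeneic cells (log2 fold change 1.56 ± 0.12, adjusted p = 3.72e-06), and Acadl, the long-chain acyl-CoA dehydrogenase, read 509, 498 and 502 in KO cells, against 166, 209.8 and 198 in syngeneic cells (log2 fold change 1.15 ± 0.08, adjusted p = 2.68e-06). Plin2, which coats lipid droplets, rose by 1.10. Pparg, the lipid-sensing nuclear receptor, read 422, 483 and 501 in KO cells, against 1577, 1642 and 1714 in syngeneic cells (log2 fold change -1.68 ± 0.08, adjusted p = 1.62e-07). The lower groups were the syngeneic one for the first 3 genes and the KO one for Pparg. Among genes of cholesterol synthesis, 14 of 20 members were tested, and 3 rose and 1 fell. Fdps, which makes farnesyl diphosphate, read 13079.7, 13985 and 14094 in KO cells, against 6388, 6285 and 5814 in syngeneic cells (log2 fold change 1.15 ± 0.08, adjusted p = 1.48e-06), and the other members called were Mvd (0.64), Lss (0.55) and Msmo1 (-0.34). In glycolysis, 15 of 18 members were tested, and 6 rose and 1 fell. Pfkp, the platelet form of phosphofructokinase, rose by 0.99 and Tpi1, the triosephosphate isomerase, by 0.57, while Slc2a3, a glucose carrier, fell by 0.39 on the log2 scale, a call lost without syngeneic replicate 1 or 3. In oxidative phosphorylation, 18 of 22 members were tested, and 2 rose and 2 fell, with a median log2 fold change of 0.04. Sdhb and Cycs had log2 fold changes of 0.42 and 0.39. The number that fell was 4 without KO replicate 1, 0 without KO replicate 2 or syngeneic replicate 1, and 1 without each of the other 3 arrays.

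**Figure D4:**
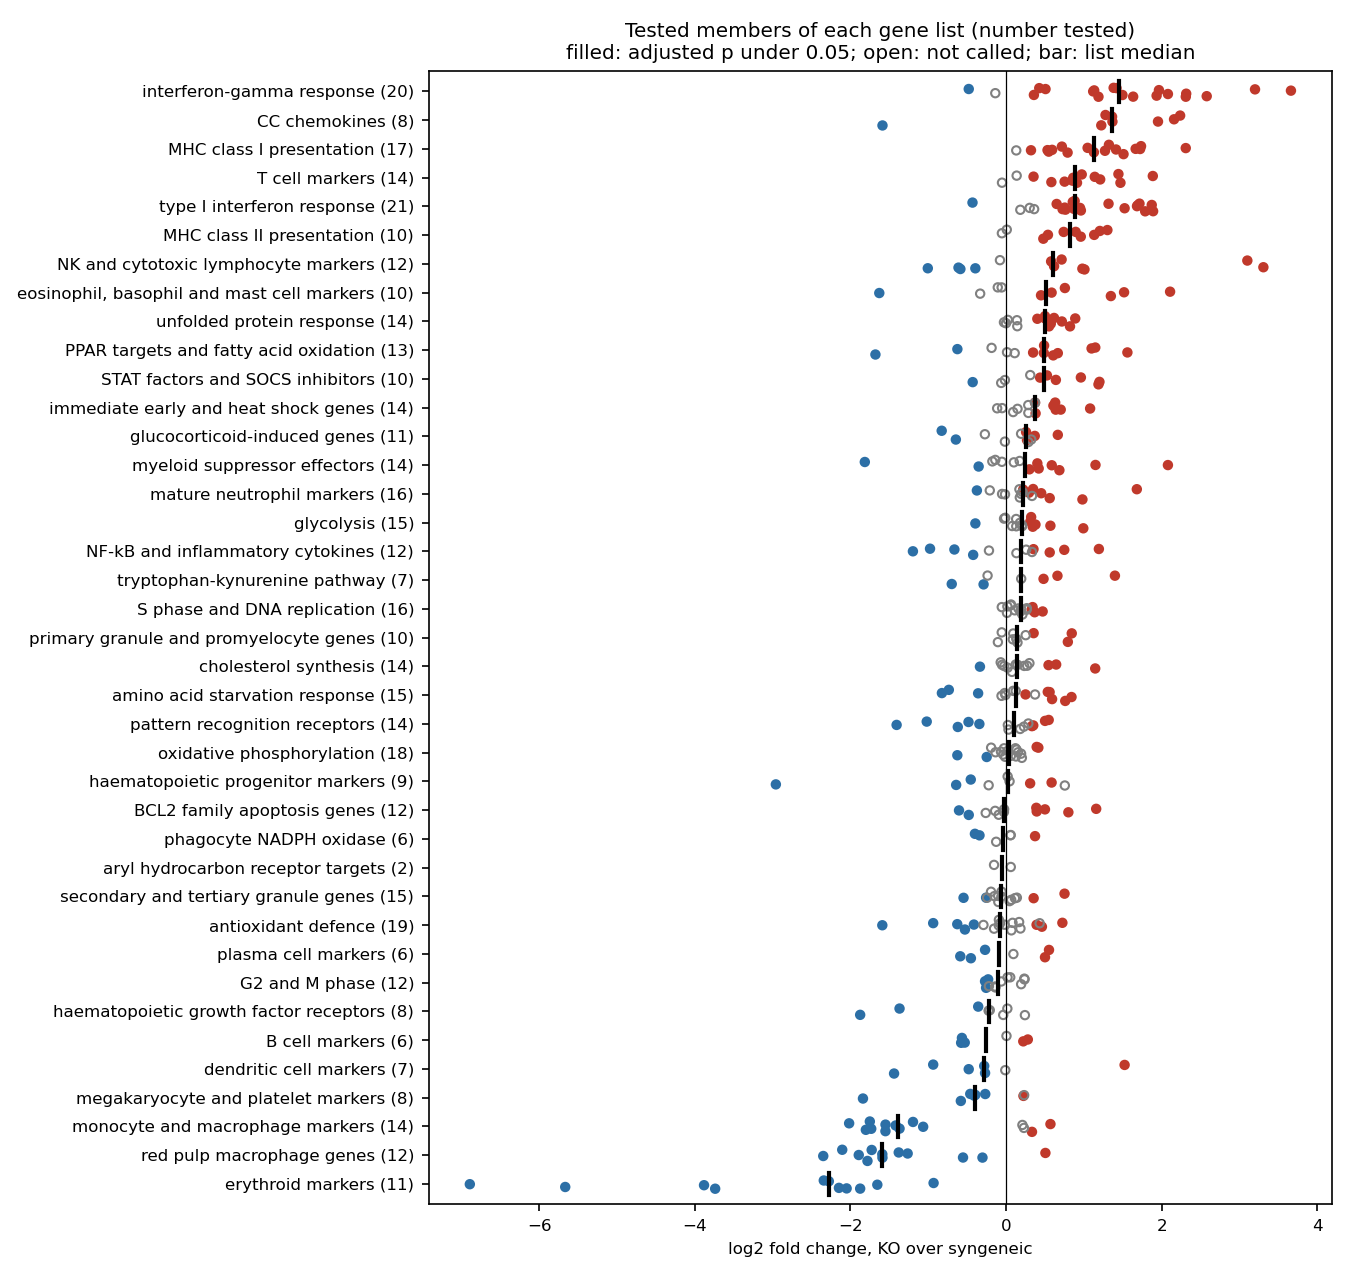
Log2 fold change of KO over syngeneic cells (x axis) for the tested members of 39 gene lists (y axis, number tested in brackets), with called genes filled (red higher, blue lower), other genes open and the list median as a bar. The interferon-gamma, CC chemokine and MHC class I lists have the highest medians (1.46, 1.37 and 1.13), and the erythroid, red pulp macrophage and monocyte lists the lowest (-2.28, -1.59 and -1.39).

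The oxidative burst and its defences were mixed. Of 6 tested members of the phagocyte NADPH oxidase, Ncf1, a cytosolic organiser, rose by 0.37, and Ncf4, another cytosolic subunit, fell by 0.34 on the log2 scale. Cybb, the catalytic subunit, read 4.204, 0.751 and 5.15 in KO cells, against 35.8, 20.2 and 22.03 in syngeneic cells, with a probe close to background (at least 1.15-fold lower, adjusted p = 0.00443). In antioxidant defence, 19 of 24 members were tested, and 3 rose and 5 fell, with a median log2 fold change of -0.08. Hmox1, which degrades haem and is abundant in red pulp macrophages, read 1167, 2009.6 and 1751 in KO cells, against 4975, 4860.2 and 5049.9 in syngeneic cells (log2 fold change -1.59 ± 0.16, adjusted p = 3.17e-05). Prdx2, a peroxiredoxin abundant in red cells, read 9972, 10007 and 10415 in KO cells, against 19088, 19919.8 and 19338 in syngeneic cells (log2 fold change -0.94 ± 0.07, adjusted p = 3.61e-06). These 2 genes fell beside the macrophage and erythroid lists, whose summed signals are given above, and the part of those cells was not tested. Prdx4, a peroxiredoxin of the endoplasmic reticulum, fell by 0.63 on the log2 scale. Sod2, the superoxide dismutase of mitochondria, read 3919, 3131 and 4159 in KO cells, against 2268, 2268 and 2123 in syngeneic cells (log2 fold change 0.72 ± 0.11, adjusted p = 4.22e-04).

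Myeloid cells can restrain T cells through ligands, cytokines and enzymes other than IDO1. A list of such suppressor genes, which also holds the co-stimulatory ligands Cd80 and Cd86, had 14 of 17 members tested. Of these, 7 rose and 2 fell. The median log2 fold change was 0.24, or 0.19 with the member at the background limit set to its bound. The largest fall was that of the co-stimulatory Cd86 (log2 fold change -1.82), given above. Cd274 led the list. Cebpb, a transcription factor of emergency granulocyte formation, read 15132, 15170.5 and 16545 in KO cells, against 9552, 9433 and 10042 in syngeneic cells (log2 fold change 0.69 ± 0.08, adjusted p = 6.55e-05). Pdcd1lg2, the second ligand of PD-1, read 16.9, 33.8 and 28.9 in KO cells, against 0.834, -9.22 and -5.68 in syngeneic cells (at least 1.16-fold higher, adjusted p = 8.46e-04). The groups did not overlap for either gene. In the fit over all 9 arrays 1 of the 7 was called higher. Arg1 and Il10 had log2 fold changes of 0.30 and 1.15, while Nos2 and Arg2 (-0.14 and -0.05) were not called. Among STAT factors and their inhibitors, 10 of 12 members were tested, and 6 rose and 1 fell. Cish, an inhibitor of STAT5 signalling, rose by 1.20 and Stat3, which relays interleukin-6 and G-CSF, by 0.53, while Pias1, of the PIAS family of SUMO ligases, fell by 0.43 on the log2 scale.

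Inflammatory cytokine and NF-kB genes moved both ways. Of 12 tested members (of 18 on the list), 4 rose and 4 fell. Il1rn, the interleukin-1 receptor antagonist, read 861, 994 and 1093 in KO cells, against 371, 393 and 408 in syngeneic cells (log2 fold change 1.19 ± 0.09, adjusted p = 4.67e-06), and Nfkbia, the inhibitor of NF-kB, read 3637, 3987 and 4388 in KO cells, against 2243, 2447 and 2362 in syngeneic cells (log2 fold change 0.75 ± 0.09, adjusted p = 9.42e-05). Il18, which drives interferon-gamma release, read 204, 194 and 211 in KO cells, against 611, 543 and 503 in syngeneic cells (log2 fold change -1.20 ± 0.08, adjusted p = 2.16e-06), and Tnf, which encodes tumour necrosis factor, read 439.6, 448 and 481 in KO cells, against 939, 1039 and 912 in syngeneic cells (log2 fold change -0.98 ± 0.08, adjusted p = 6.55e-06). KO values were above syngeneic values for the first pair and below them for the second pair. A dimmer probe of Il18 read 83.6, 103 and 130 in KO cells, against 136, 112 and 157 in syngeneic cells. Its log2 fold change was -0.23 and its groups overlapped, so the size of the fall depends on the probe. Among pattern recognition receptors, 14 of 16 members were tested, and 4 rose and 5 fell. Tlr5, the flagellin receptor, read 33.97, 25.8 and 27.4 in KO cells, against 210.4, 173 and 179 in syngeneic cells (log2 fold change -1.41 ± 0.08, adjusted p = 6.38e-07), and Ly96, the MD-2 partner of TLR4, read 523, 323 and 345 in KO cells, against 911, 856 and 808 in syngeneic cells (log2 fold change -1.02 ± 0.14, adjusted p = 2.85e-04). Tlr6, which detects bacterial lipopeptides, rose by 0.55, and Tlr8 fell by 0.48 on the log2 scale. The number that rose was 7 without KO replicate 1 and 2 without KO replicate 3 or syngeneic replicate 1 or 3. Among 8 tested haematopoietic growth factor receptors, 0 rose and 3 fell, namely Epor, Csf1r and Il3ra (-0.36), and the number that rose was 1 without KO replicate 3.

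Cell cycle genes had log2 fold changes between -0.27 and 0.47, and BCL2 family genes between -0.60 and 1.16. In S phase, G2 and M phase, cholesterol synthesis, oxidative phosphorylation and both granule lists the share of tested members called lay below the 38.1% of all genes. Among genes of S phase, 16 of 20 members were tested, and 4 rose and 0 fell, led by Ccne1, a cyclin of S phase entry (0.47). The number that rose was 9 without KO replicate 1, 2 without KO replicate 3 or syngeneic replicate 1, and 1 without syngeneic replicate 2. Among genes of G2 and M phase, 12 of 20 members were tested, and 0 rose and 3 fell. These were Cenpa (-0.26), Bub1b (-0.27) and Birc5 (-0.23); 0 fell without KO replicate 3 or syngeneic replicate 2 or 3, 1 fell without syngeneic replicate 1, and 2 members rose without KO replicate 1. A second probe of Bub1b went the other way (log2 fold change 0.57), and with its probes averaged the gene had one of 0.15, so its direction is not settled. In the BCL2 family, 12 of 16 members were tested, and 5 rose and 2 fell. Bak1, which opens the outer mitochondrial membrane, read 578, 369 and 362 in KO cells, against 163, 155 and 146 in syngeneic cells (log2 fold change 1.16 ± 0.14, adjusted p = 1.30e-04), and Bcl2a1d, a survival gene of neutrophils with near-identical copies, read 929.7, 782 and 1100.4 in KO cells, against 549.8, 541 and 431 in syngeneic cells (log2 fold change 0.80 ± 0.13, adjusted p = 6.85e-04). Bcl2, the founding inhibitor, and Bbc3, which encodes the killer protein PUMA, had log2 fold changes of -0.60 and -0.48, while dimmer probes of Bbc3 had 0.16 and 0.11. The number that rose was 3 without syngeneic replicate 1 or 2. Among glucocorticoid-induced genes, 11 of 12 members were tested, and 4 rose and 2 fell, with Fkbp5, a co-chaperone of the receptor, at 0.67, Sgk1, a kinase, at -0.83 and Klf9, a transcription factor, at -0.64. There 7 rose without KO replicate 1 and 2 without syngeneic replicate 1 or 2.

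Several of the largest rises lay outside the lists. C4b, a gene of complement C4, read 1122, 1414 and 1452 in KO cells, against 176, 155 and 157 in syngeneic cells (log2 fold change 2.60 ± 0.10, adjusted p = 3.18e-08). C4a read 1727, 1866 and 1782 in KO cells, against 235, 255 and 276 in syngeneic cells (log2 fold change 2.53 ± 0.08, adjusted p = 6.53e-09), and the probes of these near-identical genes may not tell them apart. Rab15, a small GTPase of endosome recycling, read 787, 646 and 809 in KO cells, against 38.3, 19.1 and 31.2 in syngeneic cells (log2 fold change 3.08 ± 0.11, adjusted p = 1.22e-08). Ifi205, of the interferon-inducible p200 family, read 1049, 1319 and 1504 in KO cells, against 189, 177 and 144 in syngeneic cells (log2 fold change 2.51 ± 0.13, adjusted p = 1.82e-07). Prm1, the protamine that packs DNA in sperm, read 363, 395 and 361 in KO cells, against 7.16, 6.33 and 7.92 in syngeneic cells and exceeded the background limit on KO arrays only (at least 5.48-fold higher, adjusted p = 4.34e-09). The rule for the largest rises takes only genes with separate groups, so the separation of these genes is no result.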

How the data were processed

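RNA of Gr-1+ spleen cells was hybridised to Illumina mouse BeadChips. The deposited intensity table gives, for each of 45281 probes and each array, a signal and a detection p-value. The submitters' processing notes list GenomeStudio, without version or settings. The deposited intensities had already been background-subtracted and quantile-normalized, as the values show: each array has an upper quartile of 102.1 and a maximum of 47219, and 35.6% of signals were at or below 0. The deposited series matrix holds log2 of the same signals, to within 1.094e-06, and served as an alternative. The deposited detection p-values tracked the signals poorly and were not used.

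Signals of the 6 arrays were corrected with limma 3.58.1 (R 4.3.3) by normexp with an offset of 50, quantile-normalized and log2-transformed. The offset understates the change of dim genes. The background limit, 13.6, was the 95th percentile over 1594 probes of keratin-associated and sensory receptor genes. Probes above it on at least 3 of 6 arrays were kept (19455 to 19477 probes exceeded it per array), and the brightest passing probe stood for each gene. The platform annotation gave 1 symbol for 34885 probes, several for 18 and none for 10378. Of 2568 other passing probes of called genes, 458 had the opposite sign. Groups were compared with lmFit and eBayes, Benjamini-Hochberg adjustment and a threshold of 0.05. Where all 3 arrays of a group lay under the limit, the fold change is a bound ("at least"), computed with each signal there raised to the limit if below it. A gene with such a bound passed the filter through the other group alone. Besides the lists where this is stated, 1 tested member was at a bound among NK and cytotoxic lymphocyte markers. The same held for megakaryocyte and platelet markers, progenitor markers and glucocorticoid-induced genes. The number of arrays limits the precision. The fit was tested on simulated data.

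The comparison and its gene lists were chosen with earlier results of these data known. Named genes are the 15 largest rises and 15 largest falls among called genes with separate groups, leaving out predicted genes and clone names, in every list the 4 genes of lowest p or fewer, the brightest member of each cell type list on KO arrays, and Ido1, Ido2, Kmo, Kynu, Xist and Y-linked genes. Other members named were chosen after their values were seen. Alternatives changed the background correction, the normalization, the filter, the probe rule, the arrays in the fit and the moderation, or left out 1 array.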

Additional observations from a re-analysis of the deposited data

How the results depend on the processing

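With 1 mean per group over all 9 arrays, 1308 genes were called (560 higher and 748 lower) in place of 4009, and with WT array 2 left out of that fit 4272 were. Against a log2 fold change of 0.5 (limma's treat), 697 were called (236 higher and 461 lower). The fit over all 9 arrays and the treat fit each lost the calls of 75 of 175 named genes. The fit without WT array 2, the only WT array that was left out, kept the calls of all 175. In every alternative run, 73 of the 175 kept theirs. The total was 3286 without background correction, 3878 with an offset of 16, 4005 with a median shift, 4133 without a filter, 4057 with a stricter filter, 2850 with the log2 values of the series matrix, 4085 when a gene's probes were averaged, 4027 with an intensity trend and robust moderation, and 4582 with array weights. Leaving out 1 array gave 3006 to 4724 calls, 1412 to 2359 higher and 1594 to 2365 lower. Deviations from the group means correlated little between arrays with the same replicate number (r = 0.014, -0.074 and 0.050). Arrays with different numbers gave r between -0.105 and 0.098. These values cannot decide whether the numbers pair samples, because both kinds of pair lie in the same range. With the replicate number as a block, 3822 genes were called, and among the named genes only Birc5, S100a8, Ebf1 and Cd37 lost their calls. With the series matrix values, log2 fold changes were 0.78 for Metap2, -0.72 for Eif2s3y and 0.17 for Sox4, opposite in sign to the main fit. Each came from another probe of the gene, so no probe reversed. Signals at or below 0 have no log2 value, so the main probes of Metap2 and Eif2s3y dropped out there. For Sox4 another probe was the brightest on that scale. With its probes averaged, Bub1b had a reversed log2 fold change of 0.15. Signals near the background limit carry little information on fold size. The planned filter on detection p-values was not run, because those columns follow the signals only in part and carry no array name.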

Other observations

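By their brightest passing probe, several called genes above a mean signal of 200 in 1 group lay under the background limit on every array of the other. There were 3 with signal on KO arrays only, Gbp2b, Prm1 and Ccl7, a monocyte attractant that read 115, 195 and 367 in KO cells, against 5.39, 4.67 and 2.37 in syngeneic cells. A second probe of Prm1 read 343, 350 and 429 in KO cells, against 8.40, 10.3 and 1.79 in syngeneic cells, and both probes had a fitted log2 fold change of 2.58. There were 17 with signal on syngeneic arrays only. Trim10, Kel, Dmtn, Ermap (a blood group antigen), Art4 (the Dombrock blood group), Ackr1 (the Duffy antigen) and Tmod1 (a cap of actin filaments in the red cell skeleton) are known from red cells. Fn3k, which repairs glycated proteins, read 5.75, 8.45 and -0.197 in KO cells, against 534, 579 and 558 in syngeneic cells. Slc15a2, a peptide transporter, and Abcb4, a phospholipid pump of bile formation, averaged 497 ± 13.8 and 494 ± 60.0 in syngeneic cells (SD, n = 3 arrays each). The others were Dmpk, Ypel4, Pdzk1ip1, Adam23, Col14a1, Metap2 and Xist. Fn3k and Slc15a2 each had 1 other passing probe, which differed little between the groups. The probes of each of these genes thus disagree, and the size of its fall is not settled.

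Metap2, a methionine aminopeptidase, stood among the 15 largest falls by its brightest probe, which read 4.74, -3.45 and -9.03 in KO cells, against 1035, 1316 and 1209 in syngeneic cells (at least 15.6-fold lower, adjusted p = 2.44e-09). Its 2 other passing probes had log2 fold changes of 0.31 and 0.19, so the probes disagree and the direction for the gene is not settled. Xist did not depend on 1 probe, since a second probe read -12.6, -5.25 and -8.18 in KO cells, against 375, 406 and 440 in syngeneic cells.

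Of the 30 tested genes nearest to Ido1 on chromosome 8, 15 on each side in the order of the reference, 4 rose and 7 fell in KO cells. The largest difference there was that of Ank1, the ankyrin of the red cell membrane, with a mean signal of 20.9 in KO cells and 553 in syngeneic cells (log2 fold change -2.82 ± 0.09, adjusted p = 6.22e-09). The others that fell had log2 fold changes between -0.78 and -0.25, and those that rose between 0.24 and 0.58. On chromosome 8 as a whole 36.7% of 556 tested genes were called.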
